A study of Mus musculus with 2 samples.

Results

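Genes of replication licensing were followed cell by cell in cultured mouse hematopoietic stem cells: Mcm2, Mcm3, Mcm4, Mcm5, Mcm6 and Mcm7, the loaders Cdc6 and Cdt1, the inhibitor Gmnn, and Mcm10. These 10 genes were taken by symbol from the 32285 genes in the count matrices, and each was present in both libraries. The study, titled as work on DNA damage and megakaryopoiesis, held 2 single-cell RNA libraries, which differ in a 48 h culture with RO-3066 or with the vehicle dimethyl sulfoxide (DMSO). The labels give the cells as hematopoietic stem cells in suspension culture, the tissue as blood and the chemistry as 10x Genomics 3' gene expression, and state neither the dose nor the target of RO-3066 nor the strain, age or number of mice. With 1 library per treatment, no difference given here has a replicate check, no p-value can be given, and the exact 95% intervals hold counting error alone.

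Replication licensing is the loading of the MCM2-7 ring, the core of the replicative helicase, onto DNA at origins in late mitosis and G1. The origin recognition complex with the proteins of Cdc6 and Cdt1 puts a pair of rings on DNA, and geminin, the product of Gmnn, binds Cdt1 and blocks further loading once S phase has begun. The Mcm10 protein acts later, when the loaded rings are switched on, and many licensing genes are transcribed as targets of E2F factors around the entry into S phase. Stem cells that leave rest must rebuild their pool of MCM proteins, and megakaryocytes, the cells that shed platelets, copy their DNA repeatedly without dividing, so that each round needs licensing again.

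Cells were kept after filters on depth, mitochondrial share and doublets, which left 5833 DMSO cells with 174597193 UMIs (unique molecular identifiers, by which captured transcripts are counted once) and 3683 RO-3066 cells with 163647228 UMIs. The RO-3066 cells were deeper, with a median of 34677 UMIs per cell against 23947 in DMSO. Cells with at least 1% of their UMIs from Pf4, which encodes the platelet chemokine platelet factor 4, are called Pf4-high here and numbered 452 in DMSO (7.75% of cells) and 259 in RO-3066 (7.03%). Pf4-high cells had medians of 59452 and 90526 UMIs, other cells 23312 and 32962, and 116 DMSO and 80 RO-3066 cells lay between 0.9% and 1.1%. All 16 genes of a stem cell marker list were detected in both libraries, with 10 in DMSO and 9 in RO-3066 at 20 CPM or more (CPM, UMIs of a gene in each 1000000 UMIs summed over cells), and the list summed to 691 and 752 CPM. The 20 genes of a megakaryocyte list summed to 20270 CPM in Pf4-high and 2707 CPM in other DMSO cells, and to 19187 and 3381 CPM in RO-3066. Pf4 is on this list and gave most of each sum, so the gap in the sums was largely set by the Pf4 limit. The median over the 20 genes was 84.4 CPM in Pf4-high and 16.3 CPM in other DMSO cells, and 116 and 38.6 CPM in RO-3066. Lymphoid markers summed to 0.286 and 0.177 CPM, with Cd3e, Cd3g and Il7r at 0 in both libraries. Mast cell markers summed to 7.73 and 9.60 CPM, endothelial and stromal markers to 26.2 and 32.4 CPM with Col3a1 at 0, neutrophil and monocyte markers to 145 and 144 CPM, and erythroid markers to 563 and 891 CPM with Slc4a1 at 0. Prtn3 (96.2 and 70.1 CPM) and Lyz2 (43.4 and 69 CPM) gave most of the neutrophil and monocyte sums, and Car2 and Hbb-bt most of the erythroid sums. The libraries shared 7 cell barcodes.

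The genes of the helicase ring lie on 5 chromosomes in the mouse genome build mm10. Mcm2 (ENSMUSG00000002870), whose protein joins Mcm5 at the gate through which DNA enters, lies at chr6:88883474-88898780 on the minus strand. Mcm3 (ENSMUSG00000041859), a ring subunit that contacts the loaders, lies at chr1:20802968-20820312 on the minus strand, and Mcm6 (ENSMUSG00000026355), a subunit bound by Cdt1, at chr1:128331590-128359664 on the same strand. Mcm4 (ENSMUSG00000022673), a subunit phosphorylated by the kinase Cdc7 at firing, lies at chr16:15623897-15637400 on the minus strand, and Mcm5 (ENSMUSG00000005410) at chr8:75109569-75128439 on the plus strand. Mcm7 (ENSMUSG00000029730), a subunit of the ring's core with Mcm4 and Mcm6, lies at chr5:138164583-138172422 on the minus strand and overlaps Cops6 and Ap4m1 on the other strand. Its introns hold the microRNA genes Mir25, Mir93 and Mir106b on its own strand, which are not among the genes of the count matrices. The loaders lie at chr11:98907801-98923940 (Cdc6, ENSMUSG00000017499) and chr8:122568015-122573554 (Cdt1, ENSMUSG00000006585), both on the plus strand. Cdt1 overlaps a gene model on its own strand, Gm20388, which is not among the genes of the count matrices. Gmnn (ENSMUSG00000006715) lies at chr13:24751845-24761923 and Mcm10 (ENSMUSG00000026669) at chr2:4989714-5012791, both on the minus strand, and the members other than Mcm7 and Cdt1 overlap no annotated gene.

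Promoter sequences show a feature that many of the members share. RefSeq promoter windows of build GRCm38.p6, from 250 bases before to 50 bases after the start of a gene, were at hand for 8 of the 10 members, all but Mcm4 and Gmnn. The letters TTTNNCGC, the core of E2F binding sites, were searched on both strands and stood in the windows of 6 of these 8 genes, against 5.17% of 32851 promoter windows of that length. Mcm2 and Mcm10 held no match. Of 2 other motifs searched likewise, CCAAT stood in 6 of the 8 genes (37.4% of all windows) and TTTGAA, the letters of a cell cycle homology region, in 1 of them, Mcm2 (17.9%). A match is a description of letters and not a site of binding. The stretches around the E2F matches are printed because the members that carry them are those compared next, with each match in capitals, read 5' to 3' on the gene's strand. The Mcm5 and Mcm6 stretches hold 2 matches on opposite strands that overlap, the Mcm3 stretch holds 2 separate matches, and 1 is seen in each of the other three. Mcm6 and Mcm7 hold 1 further match each, outside the stretch shown. The Mcm3 stretch is chr1:20820266-20820295, that of Mcm6 chr1:128359780-128359839, that of Mcm7 chr5:138172015-138172074, that of Mcm5 chr8:75109332-75109391, that of Cdc6 chr11:98907987-98908046 and that of Cdt1 chr8:122568035-122568064.
Mcm3: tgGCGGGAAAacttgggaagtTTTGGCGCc
Mcm5: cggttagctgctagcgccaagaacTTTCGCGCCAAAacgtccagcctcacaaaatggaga
Mcm6: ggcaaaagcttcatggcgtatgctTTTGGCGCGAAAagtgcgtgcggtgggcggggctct
Mcm7: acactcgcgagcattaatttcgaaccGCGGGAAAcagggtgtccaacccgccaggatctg
Cdc6: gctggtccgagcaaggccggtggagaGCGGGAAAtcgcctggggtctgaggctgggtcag
Cdt1: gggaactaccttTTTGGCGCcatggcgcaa

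The first question was how the levels compared between cells kept with the compound and with vehicle. The 6 ring genes together stood at 992 CPM in DMSO and 1179 CPM in RO-3066, a fold of 1.19 (1.18 to 1.196). Their ratios differed from gene to gene. Mcm3 was at 229 CPM in DMSO and 323 CPM in RO-3066, 1.41-fold (1.39 to 1.43). Mcm5 was at 103 and 139 CPM, 1.36-fold (1.33 to 1.39), and Mcm2 at 82.4 and 105 CPM, 1.28-fold (1.249 to 1.31). These 3 genes were the highest of the ring genes by fold. Mcm4 was at 121 and 137 CPM, 1.13-fold (1.11 to 1.16), and Mcm6 at 177 and 190 CPM, 1.07-fold (1.05 to 1.09). Mcm7 was at 279 and 284 CPM, 1.02-fold (1.004 to 1.03), and its ratio turned to 0.992 when each cell had equal weight and to 0.986 when cells were thinned to 10000 UMIs. The make-up of the ring transcripts differed in the same sense. Mcm3 gave 23.1% of the MCM2-7 UMIs in DMSO (22.9 to 23.3) and 27.4% in RO-3066 (27.2 to 27.6), while Mcm7 gave 28.1% (27.9 to 28.3) and 24.1% (23.9 to 24.3). UMIs from transcript ends are not scaled by transcript length, so levels are set side by side for a gene and not between genes.

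Among the loaders, Cdt1 stood apart from Cdc6. Cdt1 was at 29.2 CPM in DMSO and 45.8 CPM in RO-3066, 1.57-fold (1.51 to 1.63), while Cdc6 was at 30.2 and 32.1 CPM, 1.06-fold (1.02 to 1.103). Under thinning to 10000 UMIs the fold of Cdt1 was 1.35 and that of Cdc6 was 0.888, so that Cdc6 took the opposite direction, as it did with equal weight per cell (0.943). The inhibitor Gmnn was at 185 and 196 CPM, 1.06-fold (1.04 to 1.08), and turned to 0.995 in thinned cells and to 0.974 in cells of 15000 to 40000 UMIs. Mcm10, needed to activate the loaded ring, was at 28.3 and 38 CPM, 1.34-fold (1.29 to 1.39).

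Cdt1 was the 1 member of 10 at least 1.5-fold higher in RO-3066, where 3.64% of the 5762 genes that reached 20 CPM in 1 library or both were. It was under 1.5-fold with equal weight per cell (1.38), in thinned cells (1.35) and in cells of 15000 to 40000 UMIs (1.47). None of the members was 1.5-fold lower, against 2.38% of those genes. Scaled to the median ratio over genes, 4.88% of the genes were higher and 1.84% lower by that fold. At a limit of 25% higher, 5 of 10 members passed (Mcm2, Mcm3, Mcm5, Cdt1 and Mcm10), beside 11.9% of the genes. The counting interval lay above 1 for 10 of 10 members and for 36.4% of the genes, and below 1 for 0 of 10 members and 52.8% of the genes. Mcm7, Cdc6 and Gmnn are the 3 of them whose direction depended on how cells were weighted. The median log2 ratio over the members was 0.27, beside -0.06 over the genes. Stem cell markers summed to 691 CPM in DMSO and 752 CPM in RO-3066 and erythroid markers to 563 and 891 CPM. The 20 megakaryocyte markers, of which Pf4 is one, had a median of 31.2 CPM in DMSO and 55.5 CPM in RO-3066, and of 16.3 and 38.6 CPM in other cells, where 8 and 14 of them reached 20 CPM. The part of these markers in the members' differences was not tested.

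**Figure D1:**
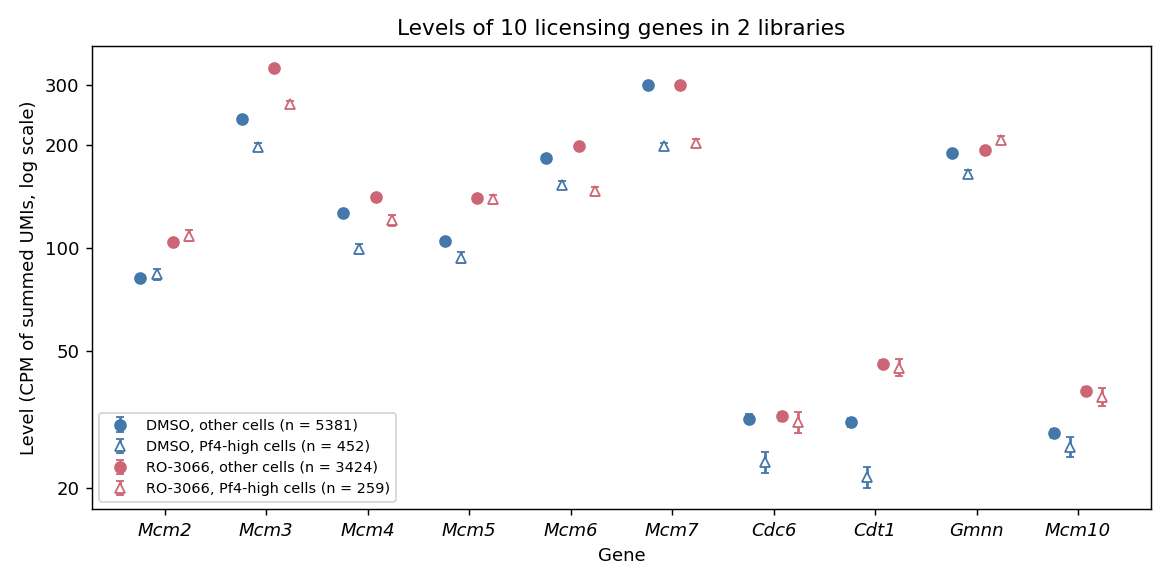
Level of each licensing gene in CPM of summed UMIs (log scale) in other cells (filled circles) and Pf4-high cells (open triangles) of the DMSO (blue) and RO-3066 (red) libraries, with 95% counting intervals. Cdt1 shows the widest gap between the libraries among Pf4-high cells (21.5 against 44.8 CPM), and Mcm7 lies near 200 CPM in Pf4-high cells and near 299 CPM in other cells of both libraries.

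Within the Pf4-high cells the widest difference was again in Cdt1. Cdt1 was at 21.5 CPM in Pf4-high DMSO cells and 44.8 CPM in Pf4-high RO-3066 cells, 2.09-fold (1.90 to 2.29), and at 31.1 and 45.9 CPM in other cells, 1.48-fold (1.42 to 1.54). Cdc6 was at 23.7 and 31.0 CPM in Pf4-high cells, 1.31-fold (1.19 to 1.44), and at 31.8 and 32.3 CPM in other cells, 1.01-fold (0.973 to 1.06). Gmnn was at 165 and 207 CPM in Pf4-high cells, 1.26-fold (1.21 to 1.30), and at 190 and 194 CPM in other cells, 1.02-fold (1.004 to 1.04), where it turned to 0.988 in thinned cells. For these 3 regulators of loading the ratio of CPM was larger in Pf4-high than in other cells. In thinned Pf4-high cells Cdc6 averaged 0.302 UMIs in DMSO and 0.332 in RO-3066, and Gmnn 1.77 and 1.92. Both gaps were narrower than in CPM, and no interval was taken for them. Cdt1 averaged 0.230 and 0.465 UMIs in these thinned cells. Among the ring genes, Mcm5 was at 93.9 and 139 CPM in Pf4-high cells, 1.48-fold (1.41 to 1.55), beside 1.33-fold (1.31 to 1.36) in other cells. Mcm6 was at 153 and 146 CPM in Pf4-high cells, a ratio of 0.955 (0.916 to 0.995), beside 1.08 (1.06 to 1.101) in other cells; scaled to the median gene it was 1.04 in Pf4-high cells, and with a Pf4 limit of 0.5% it was 1.02. Mcm2, Mcm3, Mcm4 and Mcm10 had folds of 1.30, 1.33, 1.21 and 1.40 in Pf4-high cells and of 1.27, 1.41, 1.11 and 1.33 in other cells. Mcm7 had 1.03 (0.990 to 1.06) and 1.001 (0.987 to 1.01), both with intervals that include 1.

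Of the 10 members 1, Cdt1, passed 1.5-fold higher in the Pf4-high cells of RO-3066, beside 7.63% of 5770 genes, and 7 were at least 25% higher, beside 15.7%. Lower by 1.5-fold were 0 of 10 members and 7.94% of the genes. The median log2 ratio over all these genes was -0.12, and scaling to the median gene raises each member by that amount. The members' median was 0.38. Among other cells no member (0 of 10) passed 1.5-fold in either direction, beside 3.72% of 5750 genes higher and 2.21% lower, and 5 were at least 25% higher, beside 11.8%. In Pf4-high cells of 15000 to 40000 UMIs, which were 138 in DMSO and 15 in RO-3066, the ring sum had a ratio of 0.876 and Cdt1 a ratio of 3.32, and each of the 6 ring genes and Mcm10 was below 1. Whether the ratios differ between Pf4-high and other cells was not tested.

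Set against other cells of the same library, most ring transcripts were a smaller share of all UMIs in Pf4-high cells, while each ring gene had more UMIs per cell there. The MCM2-7 sum averaged 62.9 UMIs per Pf4-high and 26.9 UMIs per other DMSO cell, and 101 and 48.7 UMIs in RO-3066. Mcm7 averaged 15.1 and 7.79 UMIs per cell in DMSO and 20.9 and 11.98 in RO-3066. As a share of all UMIs the MCM2-7 sum was 826 CPM in Pf4-high and 1033 CPM in other DMSO cells, a ratio of 0.80 (0.790 to 0.810), and 980 and 1217 CPM in RO-3066, a ratio of 0.805 (0.795 to 0.816). Mcm7 gave the lowest ratios, 198 against 299 CPM in DMSO (0.663, 0.646 to 0.680) and 203 against 299 CPM in RO-3066 (0.679, 0.660 to 0.699). Mcm2 did not follow, at 83.8 against 82.0 CPM in DMSO (1.02, 0.981 to 1.06) and 109 against 105 CPM in RO-3066 (1.04, 1.0 to 1.08), but with a Pf4 limit of 2% it was at 0.866 in DMSO and 0.862 in RO-3066. In DMSO the other ring genes ran from 0.788 for Mcm4 to 0.897 for Mcm5. In RO-3066 Mcm6 was at 0.738, Mcm3 at 0.785, Mcm4 at 0.857 and Mcm5 at 0.994, the last with an interval (0.959 to 1.03) that includes 1.

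The regulators differed by library in this comparison. In DMSO, Cdt1 had a ratio of Pf4-high to other cells of 0.690 (0.638 to 0.747), Cdc6 of 0.745 (0.691 to 0.803) and Gmnn of 0.868 (0.843 to 0.893). In RO-3066, Cdt1 had 0.976 (0.916 to 1.04), Cdc6 0.961 (0.891 to 1.04) and Gmnn 1.07 (1.04 to 1.099). The loaders were thus a smaller share of summed UMIs in Pf4-high than in other cells of the DMSO library, and their intervals include 1 in RO-3066. In thinned DMSO cells Cdt1 averaged 0.230 UMIs in Pf4-high and 0.344 in other cells, and Cdc6 0.302 and 0.340. Cdc6 was seen in 22.4% (18.6 to 26.5) and 26.0% (24.8 to 27.2) of these cells, with intervals that overlap. Mcm10 in DMSO was at 0.911 (0.847 to 0.980), which turned to 1.05 in thinned cells, and in RO-3066 at 0.962 (0.898 to 1.03). At least 1.5-fold lower in Pf4-high cells were 1 of 10 members in DMSO (Mcm7, beside 7.44% of 5782 genes) and 0 of 10 in RO-3066 (7.64% of 5878 genes), and 0 of 10 were 1.5-fold higher in either library, beside 8.65% and 8.17%. Pf4-high cells were the deeper cells in both libraries, and the part of depth in these ratios was not tested beyond the range of 15000 to 40000 UMIs. There the ring sum had ratios of 0.693 in DMSO and 0.502 in RO-3066, from 138 and 15 Pf4-high cells. Stem cell markers summed to 471 CPM in Pf4-high and 745 CPM in other DMSO cells, and to 519 and 797 CPM in RO-3066, and their part in these ratios was not tested. The ratios below 1 are of shares of UMIs, and the UMIs per cell of each of the 10 members were higher in Pf4-high than in other cells of both libraries.

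The share of cells with at least 1 UMI of a gene depends on depth, so it was taken after each cell was thinned to 10000 UMIs, with 84 DMSO and 124 RO-3066 cells left out as too shallow. In DMSO Mcm7 was seen in 90.7% (89.9 to 91.4) and Mcm3 in 87.4% (86.5 to 88.2), and in RO-3066 the shares were 93.7% (92.9 to 94.5) and 94.1% (93.3 to 94.9). Gmnn was seen in 80.8% and 82.8%, Mcm6 in 78.1% and 82.9%, Mcm4 in 67.2% and 71.5%, Mcm5 in 61.4% and 72.8%, and Mcm2 in 53.4% and 60.2%. The ring genes and the inhibitor were thus seen in most cells of both libraries, and the share was higher in RO-3066 for the 6 ring genes, while the intervals of Gmnn overlap (79.7 to 81.8 and 81.6 to 84.1). Cdt1 was seen in 26.6% with DMSO (25.5 to 27.8) and 35.2% with RO-3066 (33.7 to 36.8), and Mcm10 in 23.2% (22.1 to 24.3) and 30.6% (29.1 to 32.1). Cdc6 was seen in 25.7% (24.6 to 26.8) and 24.8% (23.4 to 26.3), with intervals that overlap. Without thinning the shares of the less abundant genes were higher in both libraries, 46.1% and 60.7% for Cdc6, 49.5% and 72.8% for Cdt1 and 48.1% and 67.4% for Mcm10.

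In thinned Pf4-high cells Cdt1 was seen in 17.2% with DMSO (13.8 to 21.1) and 36.7% with RO-3066 (30.8 to 42.9), beside 27.4% and 35.1% of other cells. Mcm5 was seen in 53.5% and 74.6% of Pf4-high cells, and Mcm7 in 76.5% and 82.0%, beside 91.9% and 94.6% of other cells. Cdc6 was seen in 22.4% (18.6 to 26.5) and 28.1% (22.7 to 34.1) of Pf4-high cells. No group of cells known to lack the genes of replication was set apart here, so no share was available from such cells. In thinned cells called G1, with median depths of 14927 and 21651 UMIs before thinning, Mcm10 was seen in 5.38% (DMSO) and 8.55% (RO-3066), Cdc6 in 23.1% (18.6 to 28.1) and 11.1% (6.05 to 18.3), Cdt1 in 29.1% (24.2 to 34.5) and 22.2% (15.1 to 30.8), and Gmnn in 57.0% and 42.7%. In cells called G2M, Cdc6 was seen in 14.6% (13.5 to 15.9) and 22.7% (21.2 to 24.3), and Cdt1 in 19.7% (18.3 to 21.0) and 34.2% (32.5 to 36.0). The lowest share of both loaders was thus in cells called G2M in DMSO and in cells called G1 in RO-3066. The part of free RNA in these shares was not tested.

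Phase was called in thinned cells from lists of 36 S and 52 G2M genes that hold none of the members. A cell was called G1 where neither list scored above a set of control genes, and otherwise took the phase of the larger score. The calls were not checked against DNA content, so the names stand for gene scores and not for measured phases. In DMSO 5.50% of 5749 cells were called G1, 36.8% S and 57.7% G2M, and in RO-3066 3.29% of 3559 cells were called G1, 16.7% S and 80.0% G2M. Among Pf4-high cells 69.4% in DMSO and 90.2% in RO-3066 were called G2M. Within 0.05 of the line between S and G2M lay 484 DMSO cells (8.42%) and 311 RO-3066 cells (8.74%), and free RNA in droplets can also enter such calls. In DMSO each of the members averaged more in cells called S than in cells called G2M. The ring sum averaged 14.9 UMIs per 10000 in cells called S and 7.96 in cells called G2M, 1.87-fold (1.84 to 1.90). Cdc6 had the widest gap, 0.610 against 0.171 UMIs, 3.57-fold (3.23 to 3.94), and Mcm10 and Gmnn the narrowest at 1.47-fold and 1.46-fold. At least 1.5-fold higher in S were 8 of 10 members, beside 1.89% of 5607 genes, and 0 were lower, beside 3.03%. In RO-3066 the gap was narrower: the ring sum averaged 15.5 and 11.4 UMIs, 1.37-fold (1.33 to 1.40), Cdc6 1.82-fold (1.58 to 2.08) and Mcm10 1.03-fold (0.888 to 1.19). There 2 of 10 members, Cdc6 and Mcm6, were at least 1.5-fold higher in S, beside 1.18% of 5765 genes, and 0 were lower, beside 2.6%.

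The ratio between the libraries was larger in cells called G2M than in cells called S, and whether it differs between the phases was not tested. The libraries also differed in where their cells lay along the difference of S and G2M scores, given by ranges below. The part of this position in the ratios by phase was not tested. Over 2847 RO-3066 and 3318 DMSO cells called G2M, the ring sum averaged 11.4 and 7.96 UMIs per 10000, 1.43-fold (1.40 to 1.45). Cdt1 averaged 0.433 and 0.228 UMIs, 1.90-fold (1.74 to 2.09), Mcm3 3.16 and 1.86 UMIs, 1.70-fold (1.65 to 1.76), and Mcm5 1.30 and 0.799 UMIs, 1.63-fold (1.55 to 1.71). Cdc6 (1.56-fold, 1.40 to 1.74), Mcm10 (1.54-fold, 1.40 to 1.68) and Mcm2 (1.51-fold, 1.42 to 1.60) also passed 1.5-fold, while Mcm4 was at 1.44, Mcm6 at 1.31, Mcm7 at 1.196 and Gmnn at 1.12. Thus 6 of 10 members were at least 1.5-fold higher in RO-3066 in these cells, beside 4.44% of 5792 genes, and 0 were lower, beside 2.3%. In those of 15000 to 40000 UMIs the count was 3 of 10 (Mcm3, Mcm5 and Cdt1), beside 4.69% of 5797 genes, and 0 were lower, beside 2.73%. In 595 RO-3066 and 2115 DMSO cells called S, the ring sum averaged 15.5 and 14.9 UMIs, 1.04-fold (1.02 to 1.07). There 0 of 10 members were 1.5-fold higher, beside 2.81% of 5691 genes, and 0 of 10 lower, beside 2.11%. Mcm3 was at 1.19 (1.13 to 1.245), Mcm5 at 1.17 (1.09 to 1.253) and Cdt1 at 1.17 (1.03 to 1.32), whereas Cdc6 was at 0.796 (0.698 to 0.905), Mcm4 at 0.895 (0.836 to 0.958), Gmnn at 0.926 (0.872 to 0.984) and Mcm7 at 0.939 (0.897 to 0.983). In S cells of 15000 to 40000 UMIs the intervals of Mcm4 (0.948, 0.877 to 1.02) and Mcm7 (0.964, 0.915 to 1.02) include 1. In 117 RO-3066 and 316 DMSO cells called G1, 9 members reached 20 CPM. Of these, 5 had intervals below 1, beside 16.4% of 5856 genes, and 0 above, beside 11.8%.

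**Figure D2:**
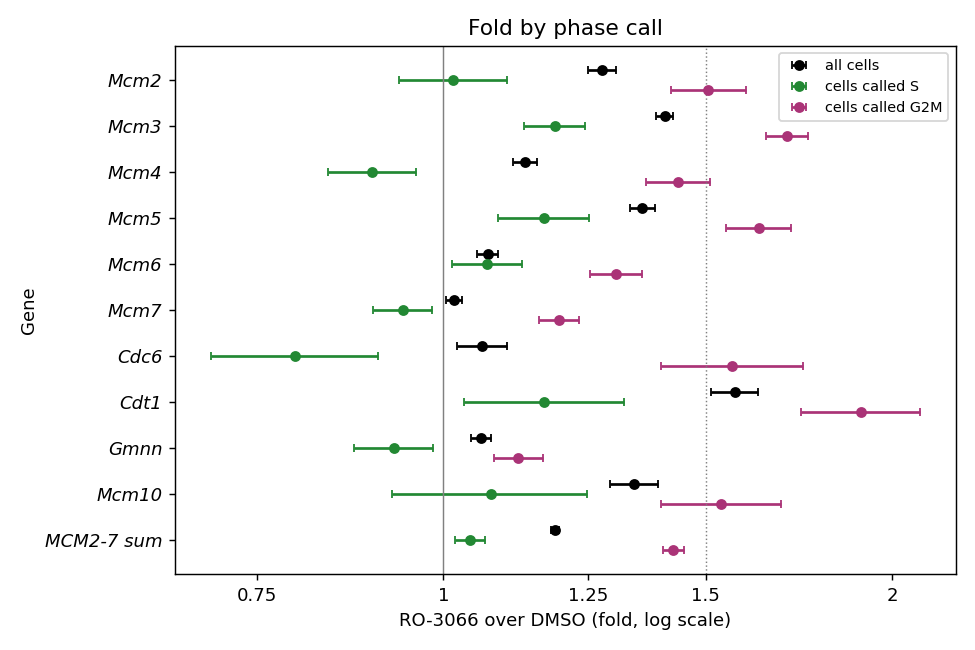
Ratio of RO-3066 to DMSO (log scale) for each licensing gene and the MCM2-7 sum, from CPM over all cells (black) and from mean UMIs in thinned cells called S (green) or G2M (purple), with 95% counting intervals; lines mark 1 and 1.5. In cells called G2M the 10 genes run from 1.12 to 1.90, and in cells called S from 0.796 to 1.19; Mcm7, Cdc6 and Gmnn over all cells turned below 1 in thinned cells.

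Genes of the phase lists were read in the same cells. In cells called G2M, 2 of 34 S-list genes with at least 20 CPM were 1.5-fold higher in RO-3066 and 0 were lower, with a median fold of 1.07, and 0 of 51 G2M-list genes were higher and 5 lower, with a median fold of 0.787. Of all 5792 genes compared in these cells, 4.44% were 1.5-fold higher and 2.3% lower. The phase lists made the calls, and the part of the lower G2M-list level in the members' difference was not tested. The ring sum had a like ratio within a range of depth, while Cdt1, Cdc6, Mcm2, Mcm5 and Mcm10 had smaller ones. Cells called G2M of 15000 to 40000 UMIs had medians of 25636 UMIs in 1285 RO-3066 and 26363 in 2720 DMSO cells. There the ring sum was 1.42-fold higher (1.39 to 1.45), Cdt1 was 1.69-fold (1.501 to 1.90), Mcm3 1.71-fold (1.64 to 1.78) and Mcm5 1.53-fold (1.43 to 1.63). Mcm2 was at 1.42-fold (1.31 to 1.53), Mcm10 at 1.40-fold (1.24 to 1.58) and Cdc6 at 1.22-fold (1.05 to 1.42). In the 231 RO-3066 and 310 DMSO Pf4-high cells called G2M, the ring sum averaged 9.56 and 6.21 UMIs, 1.54-fold (1.45 to 1.64). Cdt1 averaged 0.468 and 0.129 UMIs there, 3.62-fold (2.50 to 5.35), Cdc6 2.59-fold (1.76 to 3.85) and Mcm5 2.02-fold (1.69 to 2.41), and 7 of 10 members were at least 1.5-fold higher, beside 10.2% of 5819 genes, with 0 lower, beside 10.3%. In Pf4-high cells called S, of which RO-3066 had 19 and DMSO 130, the ring sum had a ratio of 0.715 (0.605 to 0.840).

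Cells were also ordered by the difference of their S and G2M scores and put into 10 ranges, set so that each held an equal number of DMSO cells, from the most S-like (range 1) to the most G2M-like (range 10). In DMSO the ring sum averaged 16.3 UMIs in range 1 and 5.66 in range 10. In RO-3066 it averaged 18.5 in range 1 and 9.68 in range 10. The ratio of RO-3066 to DMSO was 1.13 in range 1, 1.097 in range 2, 1.04 in range 3 and 0.997 in range 4, then 1.08, 1.22 and 1.29 in ranges 5 to 7, and 1.502, 1.63 and 1.71 in ranges 8, 9 and 10. The libraries were thus close in the S-like ranges and farthest apart at the G2M end, where the RO-3066 cells were fewer. RO-3066 had 664, 976 and 628 cells in ranges 5 to 7 and 360, 208 and 92 in ranges 8 to 10. DMSO had 574 or 575 cells in each range. Depth differed at the G2M end in the opposite sense to the whole libraries, with medians of 24474, 22240.5 and 19983.5 UMIs in RO-3066 and 30686, 31875 and 30653 in DMSO in ranges 8 to 10, and its part was not tested. Cdc6 averaged 0.704 UMIs at its peak in DMSO and 0.0852 at its lowest, an 8.27-fold span, and spanned 3.21-fold in RO-3066. Gmnn had narrow spans, 1.97-fold in DMSO and 1.68-fold in RO-3066. Mcm3 was higher in RO-3066 in each of the 10 ranges, from 1.19-fold in range 4 to 1.78-fold in range 9. Mcm7 crossed over, from a ratio of 0.847 (0.777 to 0.922) in range 4 to 1.77 (1.54 to 2.02) in range 10.

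**Figure D3:**
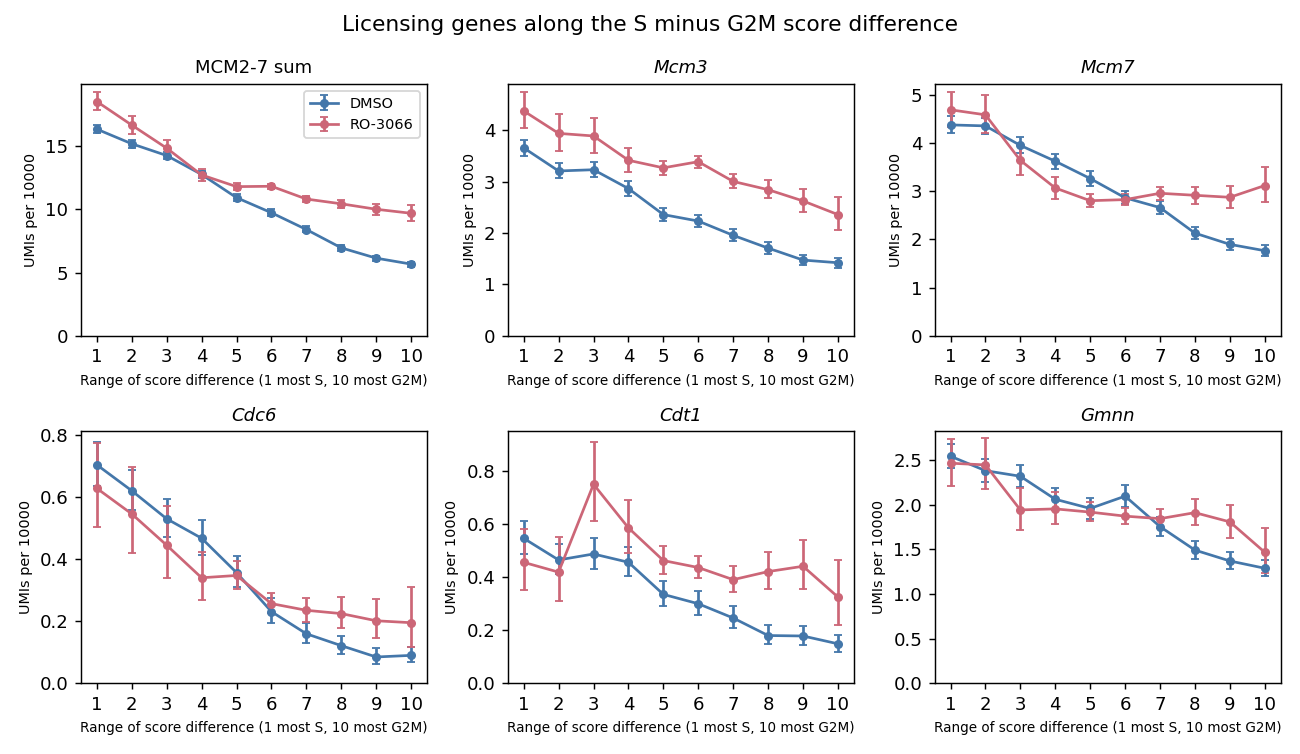
Mean UMIs per 10000 of the MCM2-7 sum, Mcm3, Mcm7, Cdc6, Cdt1 and Gmnn in 10 ranges of the S minus G2M score difference, DMSO in blue and RO-3066 in red, with 95% counting intervals. The ring sum goes from 16.3 to 5.66 in DMSO and from 18.5 to 9.68 in RO-3066 along the ranges, and the lines for Mcm7 cross.

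The spread of the ring sum over cells was narrower in RO-3066. Per thinned cell it ran from 0 to 37 UMIs in DMSO, with a median of 10 and an SD over cells of 5.43, and from 0 to 32 in RO-3066, with a median of 11 and an SD of 4.79. Its variance was 2.77 times its mean in DMSO and 1.93 times in RO-3066. At most 5 ring UMIs were seen in 18.9% of cells in DMSO (17.9 to 19.9) and 7.14% in RO-3066 (6.31 to 8.03). Among Pf4-high cells these shares were 36.9% (32.4 to 41.6) and 14.1% (10.0 to 18.9). At the other end, 6.40% (DMSO) and 6.996% (RO-3066) of cells had at least 20 ring UMIs. The libraries therefore differed in the low end of the range and had like shares at the high end.

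Since the ring needs each of its 6 subunits, the number of ring genes seen together in a cell was counted. After thinning all 6 were seen in 20.8% of cells in DMSO (19.7 to 21.8) and 27.0% in RO-3066 (25.6 to 28.5). The product of the shares of the 6 genes is 13.6% and 22.9%, so that the share lay farther above the product in DMSO. In Pf4-high cells all 6 were seen in 13.6% (10.6 to 17.2) and 21.9% (17.0 to 27.4), and in other cells in 21.4% (20.3 to 22.5) and 27.4% (25.9 to 29.0). None of the 6 was seen in 17 DMSO cells and 4 RO-3066 cells. The median cell held 5 ring genes in both libraries, 4 in Pf4-high DMSO cells and 5 in Pf4-high RO-3066 cells. Of the 10 members the median cell held 6 in DMSO and 7 in RO-3066, and all 10 were seen in 0.835% and 0.843% of cells.

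**Figure D4:**
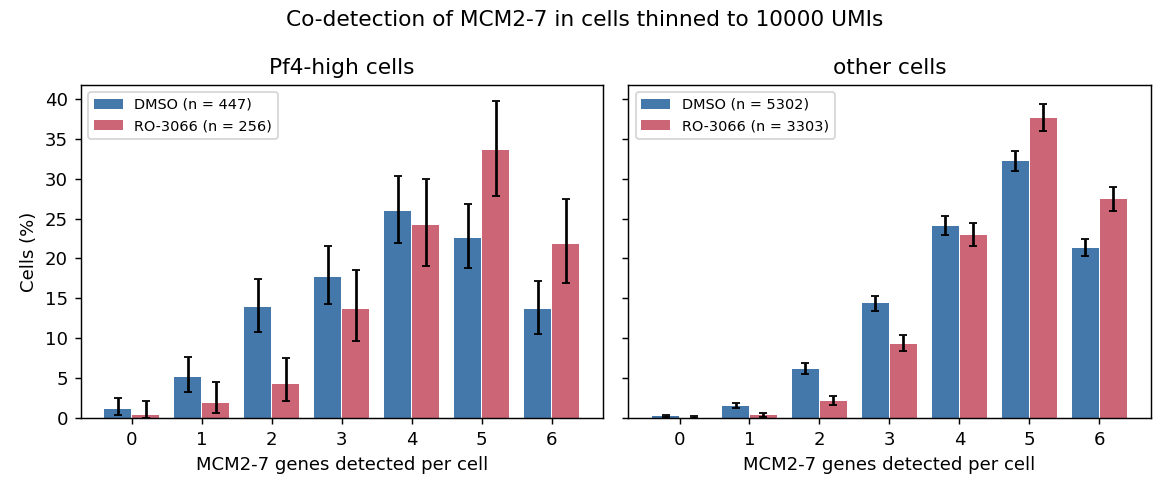
Share of cells (%) with 0 to 6 of the MCM2-7 genes seen, in Pf4-high cells (left) and other cells (right) thinned to 10000 UMIs, for DMSO (blue) and RO-3066 (red), with 95% exact binomial intervals. All 6 genes were seen in 13.6% and 21.9% of Pf4-high cells and in 21.4% and 27.4% of other cells.

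Most cells with a loader also held Gmnn, as did most cells of either library. Both Cdc6 and Cdt1 were seen in 8.87% with DMSO (8.15 to 9.64) and 9.67% with RO-3066 (8.71 to 10.7), and at least 1 of them in 43.5% and 50.4%. A loader without Gmnn was seen in 7.22% (6.56 to 7.92) and 7.98% (7.11 to 8.92). In Pf4-high cells at least 1 loader was seen in 32.2% with DMSO (27.9 to 36.8) and 54.7% with RO-3066 (48.4 to 60.9), and Gmnn with neither loader in 49.7% (44.9 to 54.4) and 35.2% (29.3 to 41.3).

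Pairs of members were compared by the Pearson correlation of log counts over cells thinned to one depth, 5749 in DMSO and 3559 in RO-3066, as a description of cells that share a library. Among the 15 ring pairs it ran from 0.12 to 0.26 with a median of 0.20 in DMSO, and from 0.07 to 0.17 with a median of 0.11 in RO-3066. The pair Mcm6 and Mcm7 was highest in both libraries, at 0.26 and 0.17. Pairs with the regulators were lower, with a median of 0.13 over 24 pairs in DMSO and 0.05 in RO-3066. Values this small in sparse counts are not read further. Within cells called S the median over ring pairs was 0.04 in DMSO and 0.08 in RO-3066, and within cells called G2M 0.12 and 0.08. The higher median over all DMSO cells was thus not seen within the DMSO cells called S.

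**Figure D5:**
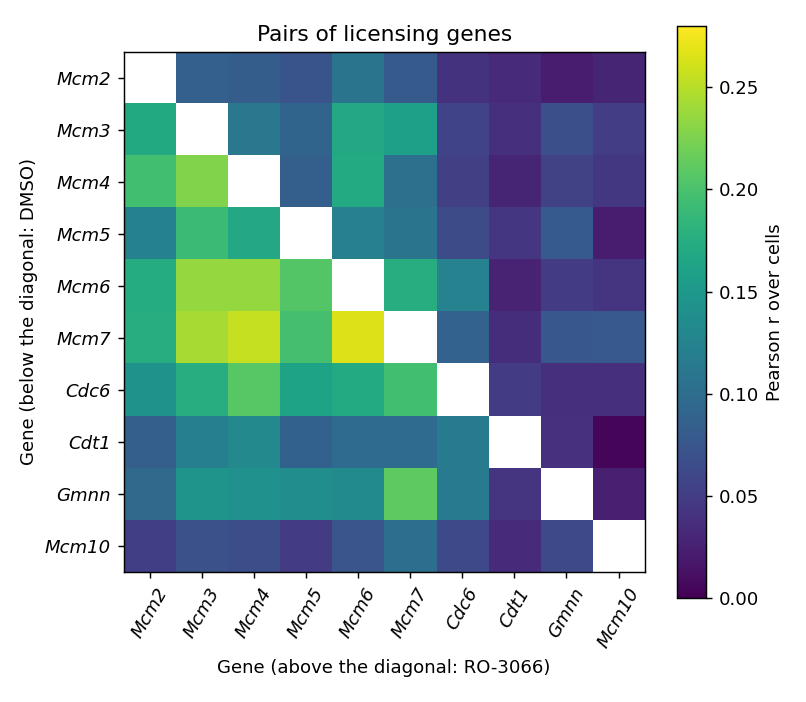
Pearson correlation of log counts over thinned cells for each pair of licensing genes, DMSO below the diagonal (5749 cells) and RO-3066 above it (3559 cells). Ring pairs in DMSO reach 0.26, and those in RO-3066 reach 0.17.

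The genes whose counts over cells were most like the ring sum were ranked in each library apart. In DMSO, over 7163 genes, the 10 highest were Hells (0.44), which encodes a chromatin remodeller, Pcna (0.39), the sliding clamp of DNA polymerases, Ccne2 (0.38), Lig1 (0.36), which joins Okazaki fragments, Uhrf1 (0.35), Dut (0.33), Atad2 (0.32), Slfn9 (0.32), Cdca7 (0.31) and Ung (0.30). Of these, 7 stand on the phase lists. In RO-3066, over 7431 genes, they were Ncl (0.28), which encodes nucleolin, Set (0.26), Hnrnpu (0.26), Hells (0.25), Nap1l1 (0.25), Hspd1 (0.22), Uhrf1 (0.22), Lig1 (0.22), Hnrnpab (0.21) and Hnrnpa3 (0.21). Hells, Uhrf1 and Lig1 were among the 10 in both.

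Other genes of the pathway had ratios of RO-3066 to DMSO on both sides of 1, and most of those of the origin recognition complex lay below it. Of the 6 genes of the origin recognition complex, 4 had at least 20 CPM, 0 were 1.5-fold apart in either direction over all cells, and their median log2 ratio was -0.23. Of all genes compared over all cells, 3.64% were 1.5-fold higher and 2.38% lower. Orc1 and Orc5, under 20 CPM and left out of that median, lay above 1 (1.30, 1.22 to 1.38, and 1.13, 1.04 to 1.23). The most abundant genes of the complex were Orc6, at 128 CPM in DMSO and 112 CPM in RO-3066 (0.875, 0.858 to 0.892), and Orc2, at 65.8 and 56.6 CPM (0.860, 0.837 to 0.884). Of 13 genes that fire the loaded helicase, 7 could be compared and 0 were 1.5-fold apart, beside the same shares, with a median log2 ratio of -0.18. Topbp1 was at 118 and 127 CPM (1.07, 1.05 to 1.095) and Dbf4, the activator of the kinase Cdc7, at 90.7 and 76.2 CPM (0.840, 0.821 to 0.860). In Pf4-high cells 1 of these genes was 1.5-fold higher and 1 was 1.5-fold lower, beside 7.63% and 7.94% of all genes compared. Gins2, a subunit of the helicase's GINS part, was at 44.6 CPM in DMSO and 83.9 CPM in RO-3066 (1.88, 1.76 to 2.01), and Cdc7, the kinase that phosphorylates MCM proteins, at 21.95 and 11.5 CPM (0.523, 0.456 to 0.598).

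Of 4 MCM partners 2 could be compared, Mcmbp at 1.07-fold and Mcm3ap at 1.11-fold. Of 8 genes that degrade or restrain Cdt1 and Cdc6, 7 could be compared and 0 were 1.5-fold apart over all cells. Of all genes compared there, 3.64% were 1.5-fold higher and 2.38% lower. Cul1 was at 122 and 115 CPM (0.940, 0.922 to 0.959) and Ddb1 at 92.0 and 96.1 CPM (1.04, 1.02 to 1.07). In Pf4-high cells 1 of the 7 was 1.5-fold lower in RO-3066, beside 7.94% of all genes compared, and 0 were higher, beside 7.63%. This was Cul4b, the scaffold of a ubiquitin ligase that acts on Cdt1, at 27.0 CPM in DMSO and 15.5 CPM in RO-3066 (0.572, 0.508 to 0.643). Set against other cells, 1 of the 7 was 1.5-fold lower in Pf4-high cells of each library, beside 7.44% of genes in DMSO and 7.64% in RO-3066. None (0 of 7) was higher, beside 8.65% and 8.17%. In DMSO it was Dtl, whose protein brings Cdt1 to that ligase (34.9 against 53.4 CPM, a ratio of 0.654, 0.615 to 0.695). In RO-3066 it was Cul4b (15.5 against 23.7 CPM, a ratio of 0.651, 0.586 to 0.722).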

How the data were processed

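RNA of single cells was counted in 2 libraries, DMSO and RO-3066, grouped by the treatment in the labels. What the authors deposited is, per the file headers, a raw UMI count for each gene in each barcode, 1 matrix to a library; the values are whole and unscaled. Cell Ranger 5.0.1 and the build mm10 are named in the submitters' processing notes, while the matrix headers name Cell Ranger 7.1.0; neither the release of the annotation nor the counting of intron reads is stated in them, and reads of overlapping genes can be lost. Coordinates are from GENCODE vM21, in which 32158 of 32285 identifiers were found.

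The DMSO matrix held 6160 barcodes with 188022321 UMIs and the RO-3066 matrix 3882 with 171821236. A barcode was kept with 1000 UMIs and 500 genes or more and a mitochondrial share up to 10%, which left out 26 and 84. Doublets were called from simulated doublets among 50 neighbours at a rate of 0.8% per 1000 barcodes; 301 barcodes (4.91%) were removed from DMSO and 115 (3.03%) from RO-3066. UMIs were summed and given as CPM. Folds carry exact conditional Poisson intervals and shares exact Clopper-Pearson intervals at 95%; the floor is 3 counts, and no member was near it. The background is the share passing the same fold among genes that reach 20 CPM in 1 or both of the groups. Phase scores used scanpy 1.11.5 on cells thinned to 10000 UMIs. Work was done in Python 3.11.15 with pandas 2.3.3, scipy 1.17.1 and numpy 2.4.6, and the calculation was tested on simulated data.

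Named are the 10 members, the genes of 4 pathway lists past 1.5-fold with the 2 most abundant of each list, and the 10 genes most like the ring sum among those seen in at least 10% of thinned cells. The members, lists and limits were chosen with earlier results of these data known. Alternatives were other scalings, weights, filters, depths, folds and Pf4 limits; phase splits were added after the data were seen.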

Additional observations from a re-analysis of the deposited data

Results flagged for a closer look

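Some ratios had opposite directions in groups of cells under the same contrast, each with a counting interval away from 1 over cells of all depths; the difference between the groups was not tested in any of them. For the ratio of RO-3066 to DMSO, Cdc6 was at 0.796 in cells called S and 1.56 in cells called G2M. Mcm4 was at 0.895 in S and 1.44 in G2M, Mcm7 at 0.939 and 1.196, and Gmnn at 0.926 and 1.12. In cells called S of 15000 to 40000 UMIs, Mcm4 (0.948, 0.877 to 1.02) and Mcm7 (0.964, 0.915 to 1.02) had intervals that include 1, while Cdc6 was at 0.819 (0.705 to 0.949) and Gmnn at 0.922 (0.859 to 0.989). Mcm6 was at 0.955 in Pf4-high and 1.08 in other cells. For the ratio of Pf4-high to other cells, Gmnn was at 0.868 in DMSO and 1.07 in RO-3066.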

How the results depend on the processing

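No paired analysis was possible because each treatment has 1 library. Keeping doublets, keeping each barcode and a mitochondrial limit of 5% moved no member ratio beyond its counting interval. The ring sum over all cells, 1.19 in RO-3066 over DMSO, was 1.24 with median-ratio scaling, 1.12 with equal weight per cell and 1.12 thinned, 1.22 in cells of 15000 to 40000 UMIs, 1.04 in cells called S and 1.43 in cells called G2M, and 1.09 and 1.42 in those phases within that depth range. In other cells it was 1.22, 1.12, 1.12 and 1.21 under the same first 4 settings, 1.17 with a Pf4 limit of 0.5%, 1.04 in S, 1.41 in G2M and 1.19 with the DMSO phase mix. In Pf4-high cells (1.19) it was 1.29 with median-ratio scaling, 1.22 and 1.15 with Pf4 limits of 0.5% and 2%, 1.54 in G2M and 1.16 with the DMSO phase mix. It reversed to 0.876 in cells of 15000 to 40000 UMIs, of which RO-3066 had 15, and to 0.715 in cells called S, of which it had 19.

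For Pf4-high over other cells, DMSO (0.80) gave 0.763 with equal weight, 0.733 thinned, 0.693 in the depth range and 0.702 with a limit of 2%. RO-3066 (0.805) gave 0.845 with median-ratio scaling, 0.772 thinned, 0.502 in the depth range (15 Pf4-high cells), and 0.842 and 0.689 with limits of 0.5% and 2%. The count of members at least 1.5-fold apart, 1, was 0 with equal weight, thinned, in the depth range and at a fold of 2. It was 5 at a limit of 25%. Of all genes, 3.21% were higher and 1.67% lower with equal weight, 3.25% and 1.81% thinned, and 3.71% and 2.58% in the depth range. At a fold of 2 the shares were 0.659% and 0.677%, and at the limit of 25% they were 11.9% and 13.8%. A minimum of 5 CPM, no minimum and a pseudocount of 1 CPM left the count of members at 1. With no minimum 26.5% of all genes were higher and 10.5% lower by 1.5-fold, against 3.64% and 2.38%. The minimum of 5 CPM gave 6.42% and 2.40%, and the pseudocount 3.31% and 2.24%.

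Single genes also reversed. Over all cells these were Mcm7 (0.992 with equal weight, 0.986 thinned), Cdc6 (0.943, 0.888) and Gmnn (0.995 thinned, 0.974 in the depth range), and in other cells Gmnn (0.998 with equal weight, 0.988 thinned, 0.970 in the depth range). There Cdc6 (1.01, then 0.925 with equal weight, 0.873 thinned and 0.996 with a Pf4 limit of 0.5%) and Mcm7 (1.001, then from 0.982 thinned to 0.999 with a Pf4 limit of 2% under 6 alternatives) also crossed 1, from intervals that include it. In Pf4-high cells of the depth range they were Mcm2 (0.949), Mcm3 (0.913), Mcm4 (0.931), Mcm5 (0.799) and Mcm10 (0.811), with Mcm7 (1.03, interval including 1) at 0.948 there and 0.998 thinned, and Mcm6 turned to 1.04 with median-ratio scaling and 1.02 with a limit of 0.5%. For Pf4-high over other cells they were Mcm10 in DMSO (1.05 thinned), and in RO-3066 Mcm2 (0.593 in the depth range, 0.862 with a limit of 2%) and Gmnn (0.952 in the depth range). That range held 15 Pf4-high cells of RO-3066. The cause was not tested for these reversals.

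The share of cells with all 6 ring genes follows depth. Thinned to 5000 UMIs, to 15000 UMIs and not thinned, it was 3.51%, 40.4% and 65.1% in DMSO, with 3.79%, 30.9% and 81.2% in Pf4-high and 3.49%, 41.2% and 63.8% in other cells. In RO-3066 it was 4.67%, 51.1% and 80.6%, with 5.06%, 39.9% and 93.1% in Pf4-high and 4.64%, 52.0% and 79.7% in other cells. It was higher in RO-3066 than in DMSO at each depth, while the order of Pf4-high and other cells turned at 5000 UMIs and without thinning.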

Other observations

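Cells called G1 were few, 117 in RO-3066 and 316 in DMSO, and there the ring sum stood the other way: 8.12 UMIs per 10000 in RO-3066 and 10.3 in DMSO, a ratio of 0.787 (0.731 to 0.846). Mcm4 had the lowest ratio of the ring genes, 0.602 (0.480 to 0.749), and Mcm7 stood at 0.681 (0.582 to 0.794). Mcm2, at 0.970 (0.761 to 1.23), and Mcm3, at 0.919 (0.795 to 1.06), had intervals that include 1.

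Over all cells the S-list genes, none of them a member, had a median fold of 0.985 in RO-3066 over DMSO (34 genes, 0 at least 1.5-fold higher and 1 lower), and the G2M-list genes a median of 0.861 (49 genes, 0 higher and 3 lower). Of all 5762 genes compared, 3.64% were 1.5-fold higher and 2.38% lower. The ring sum over the same cells was 1.19-fold.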
